A study of Saccharomyces cerevisiae with 18 samples.

Results

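The dot4 ubp8 double null of budding yeast, a strain lacking both DOT4 and UBP8, was compared with its wild type on 6 arrays, chosen by their titles from the 18 arrays of the study. Per the labels, the double null strain was UCC6393 and the wild type UCC6389, both grown in YEPD, a rich glucose medium, and total RNA of the pair was compared on each array, 1 strain per channel. The remaining 12 arrays compared the dot4 null (UCC6390) and the ubp8 null (UCC6392), 6 arrays each, with the same wild type strain. The arrays of a genotype form 3 numbered sets, and a set was counted as 1 replicate. A set holds a dye swap, 1 array with the RNA of the null in channel 2 and 1 with it in channel 1, named channel 2 arrays and channel 1 arrays below. 1 of the double null arrays, the channel 2 array of set 3, carries the strain number UCC6392 beside the name of the double null. Whether the sets came from separate cultures is not said in the labels. The p-values therefore reflect only how far the sets differ, which may be technical. The labels name no strain background and no markers, and each genotype is represented by 1 strain.

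DOT4 is the older name of UBP10, and UBP10 and UBP8 encode proteases that remove ubiquitin from histone H2B. Ubp8 works as a part of SAGA, a coactivator complex that also acetylates histone H3 and is recruited to the promoters of many regulated genes, and Ubp10 acts apart from SAGA and was first known for its effect on gene silencing near telomeres and at other silent loci. Ubiquitin on H2B is placed by Rad6 and Bre1 and is required for methylation of histone H3 by the Set1 complex and by Dot1, and both its placement and its removal are needed for normal transcription.

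All values below are log2 ratios of double null over wild type, each array centred on its median, and a value written with ± is the mean over the 3 sets and its standard error in limma (n = 3 sets) unless said otherwise. A change was called at an adjusted p under 0.05 in limma, with Benjamini-Hochberg adjustment over all 6205 ORFs. The direction of the deposited ratios is not given in the sources used here beyond a comparison of the 2 dyes, and was set by the deleted genes, which were low in the null if channel 2 was the numerator. UBP10 (YNL186W) lay between -5.58 and -3.88 on the 6 double null arrays (mean -4.70 ± 0.064) and UBP8 (YMR223W) between -3.79 and -1.49 (mean -2.94 ± 0.099). The array labelled with the strain number of the ubp8 null gave -4.67 for UBP10 and -3.38 for UBP8, so both deleted genes were low on it. Across ORFs, arrays of the same orientation correlated at a Pearson r between 0.85 and 0.94, and arrays of opposite orientation between 0.68 and 0.81. ORFs are not independent replicates, and no channel intensities were used here, so no transcript could be called present or absent and levels of different genes were not compared.

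In the double null 2026 ORFs rose (32.7% of 6205) and 1980 fell (31.9%), 4006 together (64.6%), many of them by little, with a smallest called change of 0.094. These 32.7% and 31.9% are the shares over all ORFs against which the counts in gene lists below stand. At least 1.5-fold changes that also passed the test were found in 351 higher ORFs (5.66%) and 121 lower ORFs (1.95%), 472 in all (7.61%). Of the higher ones 79 and of the lower ones 26 changed at least 2-fold. All 6 arrays lay above 0 for 343 of the 351 higher ORFs and below 0 for 99 of the 121 lower ones. When the orientations were tested apart, 345 of the 351 were called higher in each and 99 of the 121 were called lower in each. Of the 22 other lower ORFs 12 were listed ORFs of Ty retrotransposons, described below. The test assumed no change of the median transcript, and a shift shared by most transcripts would not be seen. In RNA of whole cultures, a change in the share of cells in a given state and a change in RNA per cell cannot be told apart.

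The largest increase was in BPH1 (YCR032W), whose product carries a BEACH domain like that of the Chediak-Higashi protein. BPH1 gave 2.005, 1.88 and 3.05 on channel 2 arrays and 2.77, 2.45 and 2.31 on channel 1 arrays, for sets 1 to 3, and values of single arrays are given in that order below. The lowest of the 6 arrays was at 1.88, and the mean was 2.41 ± 0.084, a 5.33-fold increase (adjusted p = 5.17e-07). HSP12, a small membrane-associated stress protein, gave 1.81, 1.77 and 2.10, then 2.02, 2.06 and 2.27, with a mean of 2.004 ± 0.059 (adjusted p = 2.97e-07). YAT1, the outer mitochondrial carnitine acetyltransferase, gave 1.58, 1.48 and 1.41, then 1.78, 1.79 and 1.82 (mean 1.64 ± 0.037). FMP48, a mitochondrial protein related to protein kinases, gave 1.88, 1.48 and 1.16, then 2.10, 1.65 and 1.67, a wider spread than in YAT1 but with the lowest array at 1.16.

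**Figure D1:**
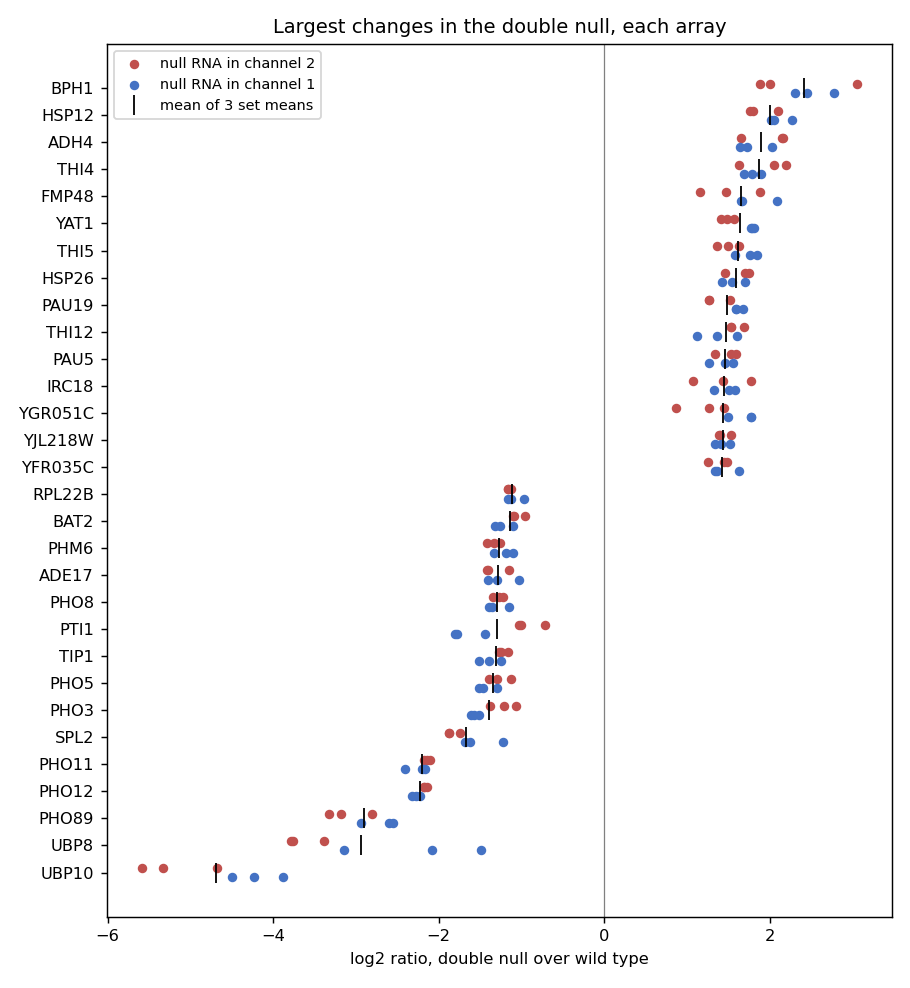
The x axis gives the log2 ratio of double null over wild type on each of the 6 arrays, channel 2 arrays in red and channel 1 arrays in blue, for the 15 largest called increases (top) and the 15 largest called decreases among ORFs with a gene name, and black marks give the mean of 3 set means. For each gene all 6 arrays lie on one side of 0, BPH1 at 2.41 and PHO89 at -2.90 on average besides the deleted genes UBP8 and UBP10.

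Phosphate genes fell in the double null. Cells short of phosphate switch on a set of genes through the transcription factor Pho4, among them secreted acid phosphatases, high-affinity transporters and the vacuolar enzyme that stores polyphosphate. Of 16 listed genes 14 fell and 2 rose, 13 of the 14 by at least 1.5-fold, and the median was -1.03 against -0.00033 over all ORFs. The 14 were called lower in each orientation. PHO89, a sodium-coupled phosphate transporter, gave -3.32, -3.18 and -2.80 on channel 2 arrays and -2.55, -2.60 and -2.94 on channel 1 arrays (mean -2.90 ± 0.037, adjusted p = 8.28e-09). Its mean was the lowest of all ORFs besides the deleted genes.

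The secreted acid phosphatases were close behind. PHO12 gave -2.18, -2.14 and -2.18, then -2.27, -2.23 and -2.33, and PHO11 gave -2.18, -2.10 and -2.14, then -2.17, -2.20 and -2.41, sets 1 to 3 in each orientation. These are close copies that the arrays may not tell apart, and their 12 values stayed between -2.41 and -2.10. PHO5, the main regulated acid phosphatase, was at -1.35 ± 0.052 and its neighbour PHO3, a phosphatase that is repressed by thiamine, at -1.39 ± 0.047. PHO8, the vacuolar alkaline phosphatase, was at -1.29 ± 0.045. Among the genes of polyphosphate synthesis VTC3 was at -1.09 ± 0.039 and VTC4 at -0.98 ± 0.038, and all 4 VTC genes fell, the least of them at -0.62. SPL2, which restrains low-affinity uptake, was at -1.67 ± 0.048, and PHM6 at -1.27 ± 0.040. The 2 genes that rose were PHM8, a phosphatase induced by phosphate shortage (1.15 ± 0.047), and GIT1, the transporter of glycerophosphoinositol (0.50 ± 0.036). Of the regulators, PHO4 fell (-0.31 ± 0.044), while PHO2 (-0.085 ± 0.041), the kinase gene PHO85 (-0.024 ± 0.046) and its cyclin gene PHO80 (0.057 ± 0.042) did not pass the test.

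Most thiamine and pyridoxine genes rose. THI4 and the THI5 family make the thiazole and pyrimidine parts of thiamine, and the SNZ and SNO genes make pyridoxine. Of 9 genes of thiamine synthesis 7 rose, 5 by 1.5-fold or more, and none fell, and the median was 0.996. With uptake genes and regulators, 10 of 14 rose and 1 fell, PHO3 at -1.39, and the median was 0.37. THI4 gave 2.19, 2.05 and 1.63, then 1.79, 1.69 and 1.90 in the 2 orientations (mean 1.87 ± 0.049, adjusted p = 2.58e-07), the lowest array at 1.63. THI5 was at 1.62 ± 0.048, THI12 at 1.48 ± 0.043 and THI13 at 1.41 ± 0.049, near-identical genes at 3 chromosome ends that the arrays may not separate. All 6 SNZ and SNO genes rose, SNZ3 the most (1.08 ± 0.036) and SNO1 the least (0.26 ± 0.037). SNZ2 was at 0.24 on channel 2 arrays and 1.13 on channel 1 arrays, the widest gap among them. DDI2 (1.33 ± 0.074) and DDI3 (1.41 ± 0.053), copies of a cyanamide hydratase gene, rose beside them.

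These genes lie next to each other. Of 12 runs of at least 3 neighbouring ORFs that were all at least 1.5-fold higher, one on chromosome VI held DDI3, SNO3, SNZ3 and THI5, and one on chromosome XIV held DDI2, SNO2, SNZ2 and THI12. A run on chromosome X held THI11, YJR157W, HXT16 and SOR1, and one on chromosome I held YAL069W, PAU8, SEO1 and YAL066W, from the first ORF of the arm on. Of the 12 runs 9 began within 10 ORFs of a chromosome end. The others were YGR050C, YGR051C, FMP48 and MCO32 on chromosome VII, ARO9, YHR138C and SPS100 on chromosome VIII, and CCW12, YLR111W and YLR112W on chromosome XII.

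ORFs near chromosome ends had higher ratios of double null over wild type than those further in. The 5 outermost ORFs of each arm, 160 in all, had a median of 0.43 ± 0.033 (SD, n = 3 sets), and 127 of them rose and 11 fell. The next 5 had a median of 0.20 ± 0.015, the next 5 of 0.097 ± 0.015, and those ranked 16 to 20 of -0.018 ± 0.018, where the 5245 ORFs ranked 31 or further in had -0.012 ± 0.0010. The medians of the first 3 bins exceeded the spread between sets. At least 1.5-fold increases made up 32.5% of the outermost 5, 20% of the next 5 and 9.38% of the third bin, against 4.42% of the inner ORFs. Without the members of the listed gene families, the 247 remaining ORFs of the outermost 10 had a median of 0.24 ± 0.028 (SD, n = 3), with 161 higher and 36 lower. Positions are ranks of systematic ORF numbers, because the deposited table names no genome build.

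**Figure D2:**
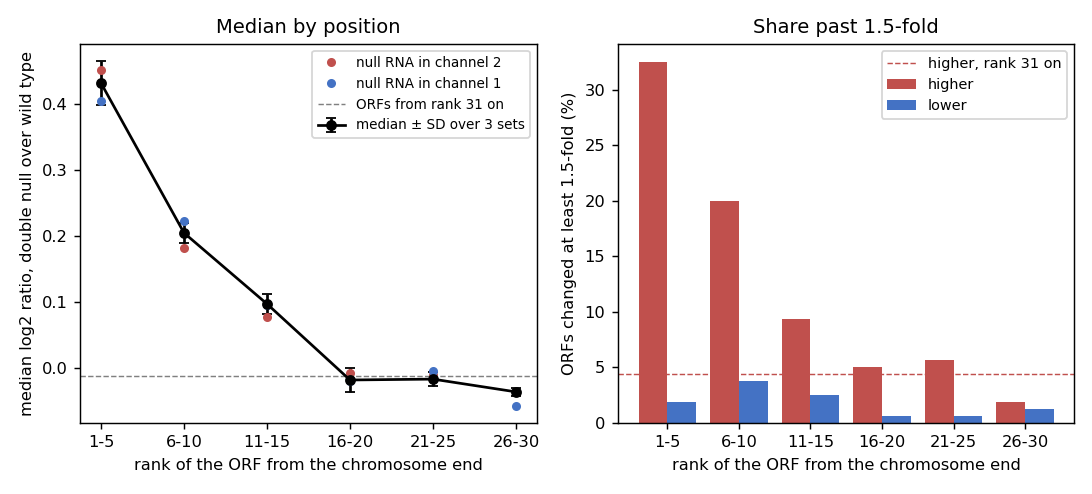
The left panel gives the median log2 ratio of double null over wild type (y axis) of ORFs in bins of 5 by rank from the chromosome end (x axis), with the SD over 3 sets as bars, coloured points for each orientation alone and a dashed line for ORFs ranked 31 or further in. The right panel gives the percentage of ORFs changed at least 1.5-fold, 32.5% higher in the outermost bin, and the dashed line marks the 4.42% of inner ORFs.

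The ends of single arms were spread widely. Of 32 arm ends, each taken as its 10 outermost ORFs, 30 had a median above 0. The highest were the right end of chromosome X at 0.60 ± 0.041, its left end at 0.59 ± 0.084 and the left end of chromosome XVI at 0.58 ± 0.047 (SD, n = 3 sets). The lowest were the left end of chromosome XIII at -0.072 ± 0.019 and the right end of chromosome VI at -0.020 ± 0.044. Over whole chromosomes the median was highest on chromosome VI, 0.096 ± 0.015, and there it was 0.11 when the 30 outermost ORFs of each arm were left out. The other 15 chromosomes lay between -0.029 and 0.038.

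Most seripauperin genes, a large family at chromosome ends, rose. Seripauperins are small mannoprotein-like proteins induced by cold and anaerobic growth. Of 23 measured members 20 rose and 1 fell, 19 at least 1.5-fold, with a median of 1.12 and set medians of 1.15, 1.08 and 1.10. PAU19 gave 1.52, 1.26 and 1.26, then 1.68, 1.59 and 1.59, PAU5 gave 1.59, 1.34 and 1.54, then 1.26, 1.47 and 1.56, and PAU17 averaged 1.40 ± 0.041. The exception was PAU23, also known as DAN2 (-0.19 ± 0.049). The related anaerobic mannoprotein genes TIR2 (1.002 ± 0.036), TIR4 (0.86 ± 0.046) and TIR1 (0.77 ± 0.037) rose as well, and TIR3 did not pass the test (0.064 ± 0.047). All 7 helicase genes of the subtelomeric Y' elements rose by a like amount, between 0.55 and 0.66. Of 11 COS genes 8 rose, with COS8 the highest (0.51 ± 0.054), and 2 fell, COS10 (-0.18 ± 0.040) and COS12 (-0.64 ± 0.15), with COS12 at -1.42 and 0.13 in the 2 orientations. Members of these families share sequence, and their values may not be separate measurements.

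Sugar transport and sugar use genes also rose. Of 9 minor hexose transporter genes (HXT8 to HXT17) 8 rose, 5 at least 1.5-fold, with HXT9 at 0.88 ± 0.041 and HXT15 at 0.72 ± 0.038. The 9 main transporter and sensor genes split, 7 higher and 1 lower, and the lower one was HXT2 (-0.54 ± 0.037). Of 12 maltose and sucrose genes 10 rose and none fell, among them the maltases MAL12 (0.87 ± 0.039) and MAL32 (0.75 ± 0.038) and the isomaltases IMA3 (0.63 ± 0.041) and IMA4 (0.58 ± 0.10). All 5 flocculin genes rose, FLO11 the most (0.57 ± 0.042) and FLO10 the least (0.23 ± 0.044).

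Stress genes rose. Of 33 genes of the general stress response, which is largely controlled by Msn2 and Msn4, 26 rose and 1 fell, with a median of 0.61 and set medians of 0.57, 0.50 and 0.50. After HSP12 the largest increases were in SOL4, a 6-phosphogluconolactonase (1.24 ± 0.040), NQM1, a transaldolase (1.16 ± 0.039), and GRE1, a hydrophilin (1.12 ± 0.054). The 1 decrease was in YGP1, a secreted glycoprotein of starving cells, whose 6 arrays were all below 0 (mean -0.86 ± 0.050). Of 27 heat shock genes 18 rose and 2 fell, with a median of 0.23. The list median was 0.38 on channel 2 arrays and 0.19 on channel 1 arrays, and 12 genes were called higher and 2 lower in each orientation. HSP26, a small heat shock protein, gave 1.75, 1.46 and 1.70, then 1.54, 1.42 and 1.70 (mean 1.60 ± 0.054), SSA4 was at 1.12 ± 0.046 and HSP42 at 0.92 ± 0.060, while SSE1 (-0.35 ± 0.036) and the mitochondrial chaperonin HSP60 (-0.30 ± 0.037) fell.

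Of 16 reserve carbohydrate genes 10 rose and 3 fell. GPH1, which breaks down glycogen, rose (0.81 ± 0.051) with the debranching enzyme GDB1 (0.73 ± 0.036) and the trehalose synthase regulator TSL1 (0.65 ± 0.066), while TPS3 (-0.27 ± 0.041), TPS2 (-0.19 ± 0.046) and UGP1 (-0.26 ± 0.038) fell. Of 14 aryl-alcohol dehydrogenase and reductase genes 11 rose and 2 fell. Those that rose included all 4 members of the HSP31 family, which are chaperones related to human DJ-1, namely SNO4 (1.16 ± 0.076), HSP32 (0.87 ± 0.066), HSP31 (0.85 ± 0.043) and HSP33 (0.80 ± 0.059), 3 of them close copies. Of 10 other genes of oxidant defence, many of them targets of Yap1, 6 fell and 1 rose, with GSH1 of glutathione synthesis at -0.69 ± 0.036 and the thioredoxin reductase TRR1 at -0.47 ± 0.047.

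Many genes that glucose represses rose in cells grown on glucose. Of 17 genes of non-fermentable carbon use 13 rose and 1 fell, led by YAT1 and by SIP4, an activator of gluconeogenesis (1.15 ± 0.042), with CAT2 (0.73 ± 0.046) and CAT8 (0.53 ± 0.084). The decrease was in MDH2, the cytosolic malate dehydrogenase (-0.66 ± 0.037). FBP1 (0.10 ± 0.054), ADH2 (0.071 ± 0.037) and ADY2 (0.11 ± 0.042) did not pass the test. All 5 genes of the carnitine shuttle rose. Of 17 TCA cycle genes 8 rose and 4 fell, with both subunits of isocitrate dehydrogenase, IDH1 (0.71 ± 0.036) and IDH2 (0.65 ± 0.041), among the higher ones. Of 35 respiratory chain genes 18 rose and 4 fell, and 10 of the 11 genes of complex III and cytochrome c were higher. In complex IV 3 of 9 rose and 3 fell. Among ATP synthase genes 4 of 12 rose and 1 fell, and 1 of 3 NADH dehydrogenase genes rose. The oxygen-regulated isoforms CYC7 (0.72 ± 0.038) and COX5B (0.62 ± 0.050) rose at least 1.5-fold, while COX5A fell (-0.15 ± 0.041). Of 7 galactose genes 6 rose, GAL10 (0.67 ± 0.056) and GAL7 (0.59 ± 0.038) the most, and of 13 peroxisomal fatty acid genes 10 rose, ECI1 the most (0.73 ± 0.042).

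Glycolysis gave no single direction. Of 20 genes 5 rose and 4 fell, and 15 of the 20 were above 0 on channel 2 arrays and below 0 on channel 1 arrays. The list median was 0.46 in the first orientation and -0.45 in the second. At an adjusted p under 0.05, 17 of the 20 were higher in the first, against 9.90% of all ORFs. PDC1, the main pyruvate decarboxylase, gave 0.52, 0.43 and 0.45, then -0.96, -0.93 and -1.14, and ADH1 gave 0.95, 0.82 and 0.79, then -0.35, -0.39 and -0.54. The calls in PDC1 and ADH1 therefore average values of opposite sign. GLK1, glucokinase (0.57 ± 0.038), and HXK2, the main hexokinase (-0.56 ± 0.045), had the same sign on all 6 arrays. PDC6, a minor pyruvate decarboxylase, was called higher (0.79 ± 0.11) with 1 array below 0, at -0.28.

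Meiosis and sporulation genes, which are off in cells growing in rich medium, rose. Of 59 measured genes 51 rose and 2 fell, with a median of 0.38 and set medians of 0.38, 0.37 and 0.40. Among genes of spore formation 28 of 32 rose and none fell, with GAS4, a spore wall glucanosyltransferase (1.14 ± 0.058), and the kinase SPS1 (0.94 ± 0.047). CDA1, a chitin deacetylase of the spore wall, gave 2.22, 1.92 and 1.06, then 0.45, 0.89 and 1.56 (mean 1.35 ± 0.038), so channel 2 was the higher orientation in sets 1 and 2 and the lower one in set 3. Among genes of recombination and the chromosome axis 19 of 21 rose, with the meiotic cohesin REC8 at 0.93 ± 0.067. Of the 6 regulators 4 rose, and IME4, an RNA methyltransferase, was lower (-0.29 ± 0.036). In 21 of the 59 genes the value was higher on channel 1 arrays at an adjusted p under 0.05, against 7.88% of all ORFs. The list medians were 0.34 on channel 2 arrays and 0.45 on channel 1 arrays.

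Genes of mating type changed little at the silent loci. HMRA1 (0.27 ± 0.044) and HMLALPHA1 (0.14 ± 0.046) were called higher, and HMRA2 (-0.036 ± 0.039) and HMLALPHA2 (-0.056 ± 0.036) did not pass the test. HMLALPHA1 was at -0.036 on channel 2 arrays and 0.31 on channel 1 arrays, and 4 of the 8 SIR and silent locus genes had opposite signs in the orientations. The HML and HMR genes share sequence with those at the mating type locus. Of the 4 SIR genes, whose products silence these loci, SIR1 rose (0.18 ± 0.041) and SIR2 fell (-0.16 ± 0.041). All 4 genes specific to alpha cells rose, the pheromone gene MF(ALPHA)1 to 0.70 ± 0.055 and the receptor gene STE3 to 0.69 ± 0.061. Of 7 genes specific to a cells 3 rose and 2 fell, with MFA2 at 0.60 ± 0.045 and BAR1 at -0.43 ± 0.041. Among 20 pheromone-induced genes 10 rose and 2 fell, led by FIG1 (1.01 ± 0.052) and FUS1 (0.71 ± 0.049), and the median was 0.13.

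Among genes for the enzymes and the substrate of H2B ubiquitination, the changes were small except in the histones. All 8 core histone genes rose, with a median of 0.54, HHF1 (0.71 ± 0.039) and HHF2 (0.71 ± 0.037) the most. Their median was 0.87 on channel 2 arrays and 0.16 on channel 1 arrays, and HTB2, an H2B gene, gave 0.93, 0.87 and 0.82, then 0.39, 0.26 and -0.013. Of the 10 histone genes, variant and linker genes included, 8 were higher on channel 2 arrays at an adjusted p under 0.05. Over all ORFs that share was 9.90%. All 6 arrays were above 0 in 4 of the 10 histone genes. Of 17 SAGA genes other than UBP8 7 fell and none rose. ADA2 (-0.56 ± 0.040) and SGF29 (-0.53 ± 0.037), both of the acetylation module, fell most, and the 2 measured genes of the deubiquitylation module did not pass the test, at -0.13 and -0.055.

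The ubiquitin ligase and methylation genes moved in both directions. Of 17 genes 4 rose and 4 fell, with SHG1 (0.28 ± 0.038) and BRE2 (0.17 ± 0.039) of the Set1 complex higher and SWD2 (-0.24 ± 0.036), SWD3 (-0.20 ± 0.037) and RAD6 (-0.21 ± 0.036) lower. Of 14 other ubiquitin protease genes 3 rose and 4 fell, against 32.7% and 31.9% of all ORFs. UBP11 (0.53 ± 0.038) and UBP9 (0.39 ± 0.037) rose most, and UBP2 was called lower at -0.43 ± 0.13 on the strength of 1 array at -1.61, with the other 5 between -0.28 and -0.10.

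Purine genes fell. The ADE genes make IMP and AMP through a shared pathway under the factors Bas1 and Pho2. Of 15 genes 14 fell and 1 rose, with a median of -0.41. ADE17, which closes the purine ring, gave -1.15, -1.40 and -1.42, then -1.02, -1.29 and -1.40 (mean -1.28 ± 0.062), followed by ADE5,7 (-0.71 ± 0.040), ADE3 of one-carbon metabolism (-0.65 ± 0.052) and ADE12 (-0.62 ± 0.050). The 1 increase was in ADE2 (0.17 ± 0.039), a gene often used as a strain marker. Among pyrimidine genes 3 rose and 8 fell of 16, URA1 the lowest (-0.96 ± 0.040) and URA3 the highest (1.25 ± 0.066). In the guanine branch 1 of 4 genes passed, IMD4 (-0.27 ± 0.042).

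Genes of branched-chain, aromatic, sulfur, lysine and histidine amino acid synthesis mostly fell. Of 11 branched-chain genes 10 fell and none rose, with the aminotransferases BAT2 (-1.14 ± 0.045) and BAT1 (-0.55 ± 0.037) and with ILV3 (-0.64 ± 0.041) and ILV5 (-0.53 ± 0.058). Of 15 aromatic genes 11 fell, ARO2 the most (-0.54 ± 0.039), and 2 rose, ARO9 (0.83 ± 0.042) and ARO10 (1.05 ± 0.047), which break aromatic amino acids down. Of 21 genes of sulfate assimilation and methionine 12 fell and 6 rose, with methionine synthase MET6 at -0.81 ± 0.044, the methionine permease MUP1 at -0.77 ± 0.039 and CYS4 at -0.74 ± 0.042, and STR3 at 0.58 ± 0.037. Of 14 lysine and histidine genes 8 fell and 2 rose, HIS4 being the lowest (-0.73 ± 0.046) and HIS2 the highest (0.43 ± 0.039).

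Of 10 allantoin and urea genes 9 rose, led by allantoinase DAL1 (1.17 ± 0.069) and DCG1 (0.96 ± 0.041), and 1 fell, urea amidolyase DUR1,2 (-0.33 ± 0.038). In arginine metabolism 7 of 13 rose and 1 fell, and of the 9 genes of arginine synthesis 5 rose and none fell (median 0.15). PUT1, which breaks down proline, was at 0.87 ± 0.037, and CAR1, arginase, was at -0.48 ± 0.037. In serine and glycine metabolism SER3 rose (0.78 ± 0.042) with the glycine cleavage genes GCV1 (0.41 ± 0.037), GCV2 (0.49 ± 0.037) and GCV3 (0.40 ± 0.042), while SER1 (-0.60 ± 0.041), SER2 (-0.44 ± 0.037) and SHM1 (-0.44 ± 0.043) fell.

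Metal and cofactor genes were mixed. Of 20 iron genes 10 rose and 5 fell. FIT3, a cell wall protein that holds siderophore iron, gave 0.85, 1.45 and 1.41, then 1.11, 1.59 and 1.49 (mean 1.31 ± 0.093), with set 1 the lowest in each orientation, and FIT1 was at 1.06 ± 0.060 and the ferroxidase FET3 at 0.72 ± 0.044. The siderophore transporter ENB1 (-0.84 ± 0.036) and the reductase FRE1 (-0.58 ± 0.12) fell. Of 8 zinc genes 3 rose, ADH4 the most (1.89), and 4 fell, and the activator gene ZAP1 was lower (-0.25 ± 0.039). Of 14 NAD genes 6 rose and 7 fell. The kynurenine steps BNA2 (0.78 ± 0.044), BNA4 (0.69 ± 0.041) and BNA5 (0.53 ± 0.049) and the nicotinamidase PNC1 (0.66 ± 0.055) rose, while BNA3 (-0.24 ± 0.046) and BNA7 (-0.20 ± 0.037), the kynurenine formamidase gene, named after its value was seen, fell. Also lower were NPT1 (-0.39 ± 0.037) and QNS1 (-0.42 ± 0.041).

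**Figure D3:**
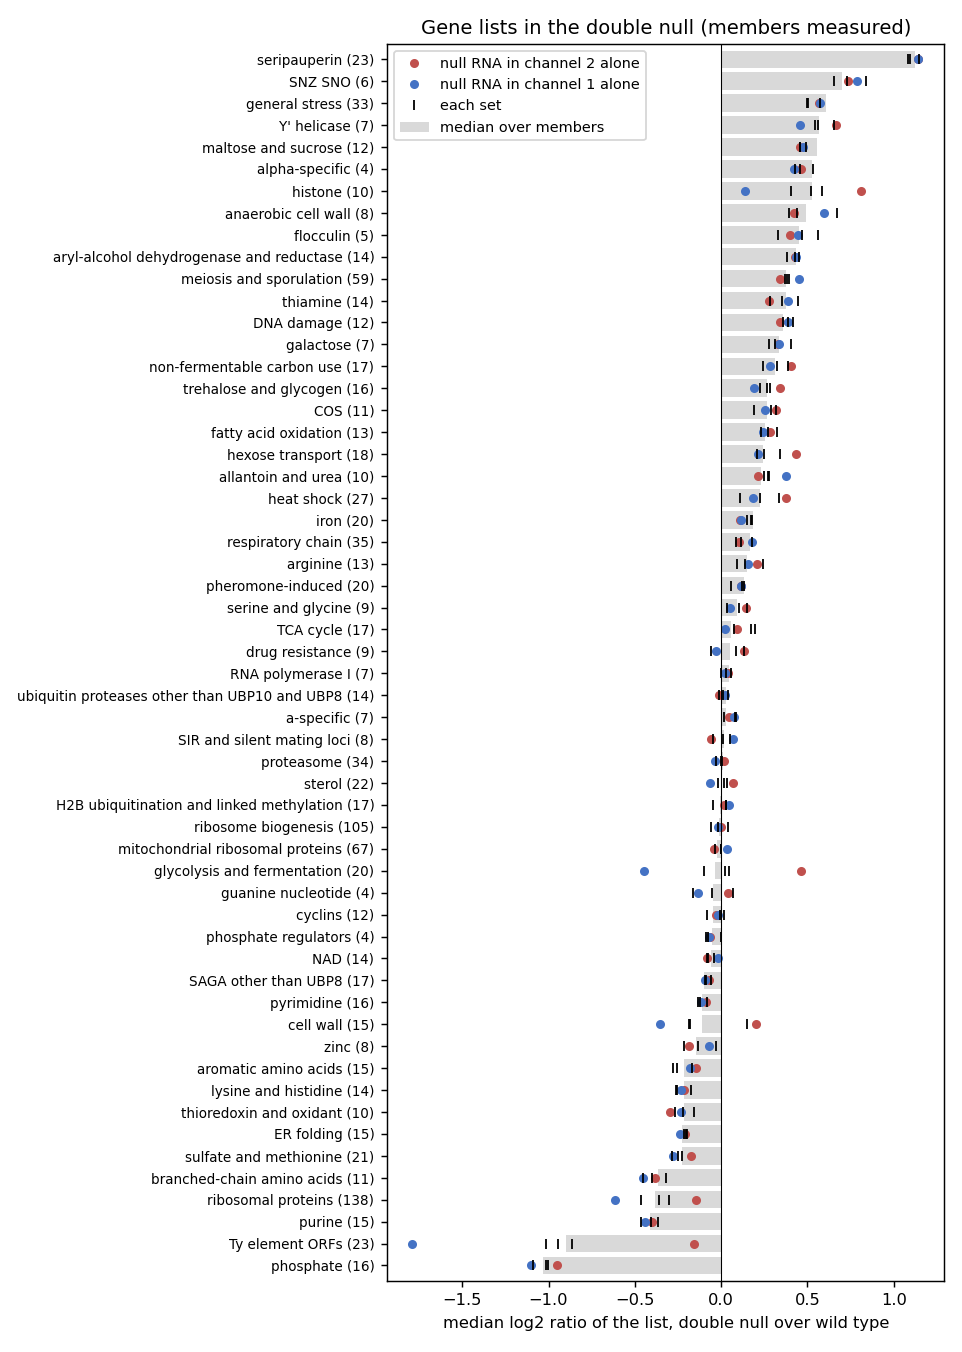
Each bar gives the median log2 ratio of double null over wild type (x axis) of a gene list (y axis, members measured in parentheses), black marks the medians of sets 1 to 3, and coloured points the medians in each orientation alone. Among the lists shown, which have at least 4 measured members, the seripauperins have the highest median (1.12) and the phosphate genes the lowest (-1.03), and the Ty, glycolysis, histone, cell wall and ribosomal protein lists have the widest gaps between the orientations.

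Ribosomal protein genes fell. Of 138 genes 126 fell and 2 rose, 9 of the 126 at least 1.5-fold, with a median of -0.38 and set medians of -0.30, -0.36 and -0.47. The size depended on the orientation, with a median of -0.15 on channel 2 arrays and -0.61 on channel 1 arrays. All 6 arrays were below 0 in 81 of the 138, and 64 were called lower in each orientation. RPL22B gave -1.17, -1.16 and -1.13, then -0.96, -1.13 and -1.16, and RPS22B gave -0.71, -0.84 and -1.09, then -0.88, -1.03 and -1.21, both low on every array. RPL41A (0.14 ± 0.036) and RPL41B (0.15 ± 0.039) were the 2 called higher, RPL41B with opposite signs in the orientations (0.37 on channel 2 arrays and -0.059 on channel 1 arrays). Genes of ribosome biogenesis had no common direction, 26 higher and 31 lower of 105 with a median of -0.013, and none reached 1.5-fold. FAL1 (0.42 ± 0.040) was the highest and ECM16 (-0.38 ± 0.047) the lowest. Of 7 RNA polymerase I genes RPA12 rose (0.13 ± 0.043) and RPA190 fell (-0.16 ± 0.036). Among 67 mitochondrial ribosomal protein genes 15 rose and 16 fell, against 32.7% and 31.9% of all ORFs.

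Protein folding and turnover genes changed by less. Of 15 genes of folding in the endoplasmic reticulum 11 fell and none rose, with a median of -0.23, SEC61 the lowest (-0.37 ± 0.042) and ERO1 next (-0.35 ± 0.036). Of 34 proteasome genes 5 rose and 7 fell, and RPT1 alone passed 1.5-fold (0.74 ± 0.042). Of 22 sterol genes 5 rose and 8 fell, against 32.7% and 31.9% of all ORFs. ERG10 (-0.47 ± 0.038), ERG13 (-0.41 ± 0.046) and HMG1 (-0.41 ± 0.041) fell most, and ERG28 (0.63 ± 0.041) and ERG25 (0.40 ± 0.040) rose most. In the drug resistance list 4 of 9 rose and 4 fell, with the polyamine exporter TPO1 at 0.70 ± 0.043 and the regulator PDR3 at -0.65 ± 0.043.

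Genes of DNA damage rose. Of 12 DNA damage genes 11 rose and none fell, with a median of 0.36. RNR3, the damage-induced large subunit of ribonucleotide reductase, was at 1.02 ± 0.036, RAD54 at 0.68 ± 0.039 and the small subunits RNR2 at 0.60 ± 0.046 and RNR4 at 0.56 ± 0.046. Of 12 cyclin genes 5 rose and 6 fell, CLB1 the highest (0.51 ± 0.048) and CLN1 the lowest (-0.43 ± 0.040). Of 15 cell wall genes 6 rose and 5 fell. TIP1, a cell wall mannoprotein, gave -1.27, -1.25 and -1.16, then -1.25, -1.51 and -1.40 (mean -1.31 ± 0.040), and CWP1 was at 0.76 ± 0.042. CCW12 was at 1.26 in the first orientation and -0.031 in the second, and the list median turned with it, 0.20 and -0.36.

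The ORFs of Ty retrotransposons were low on average and had the largest differences between orientations. All 23 listed ORFs were called lower, at least 1.5-fold each, with a median of -0.90. Their median was -0.16 on channel 2 arrays and -1.79 on channel 1 arrays. The ORFs did not behave alike. YBL005W-A gave -1.18, -1.53 and -1.62, then -2.06, -1.63 and -1.998, and YAR010C gave -0.73, -1.18 and -1.05, then -2.01, -1.70 and -1.83, low in both. YAR009C gave 0.26, 0.18 and -0.070, then -1.96, -1.80 and -1.80, and YER160C gave 0.15, 0.11 and -0.055, then -1.78, -1.70 and -1.92, no lower than -0.070 in the first orientation and low in the second. Of the 23 ORFs 11 were called lower in each orientation and 9 had opposite signs. On channel 2 arrays 19 were higher at an adjusted p under 0.05, against 9.90% of all ORFs. Ty elements are repeated many times, and these values are not separate measurements of single copies.

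**Figure D4:**
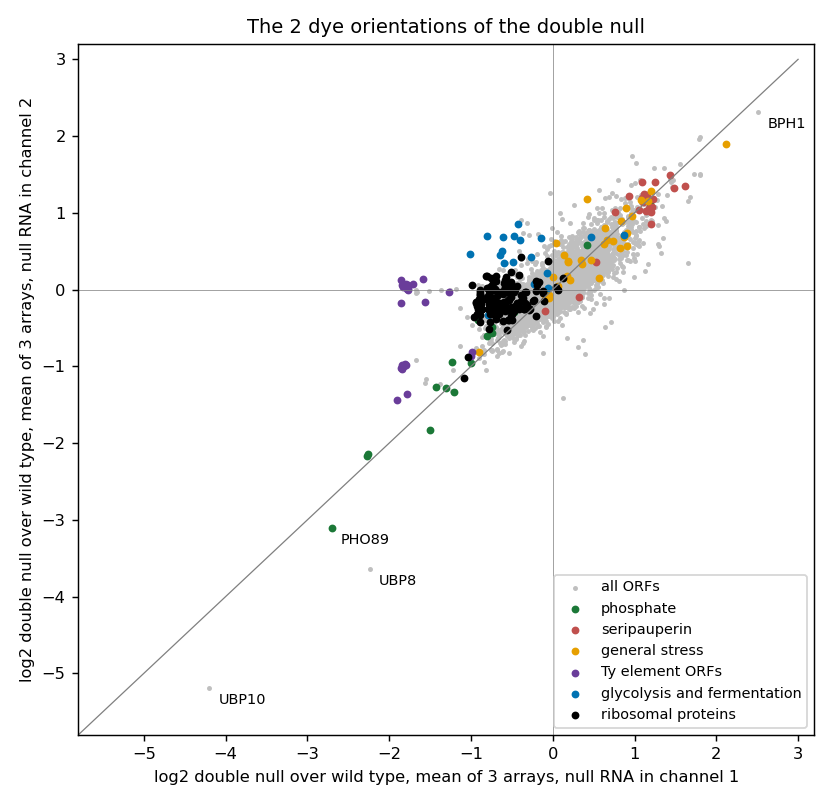
Each point is an ORF, with its mean log2 ratio of double null over wild type over the 3 channel 1 arrays (x axis) and over the 3 channel 2 arrays (y axis), and the line marks equal values. Phosphate, seripauperin and general stress genes lie near the line, while Ty ORFs, glycolysis genes and ribosomal protein genes lie above it.

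Over all ORFs, 614 were higher (9.90%) and 489 lower (7.88%) on channel 2 arrays than on channel 1 arrays, and 162 (2.61%) differed by at least 1.5-fold, 133 of them higher and 29 lower. That count rested on single sets, being 52 higher and 6 lower without set 2, and 176 higher and 45 lower without set 3. The 5 largest differences were all in Ty ORFs. YAR009C differed by 1.98 ± 0.096 (adjusted p = 0.0012) and YBL101W-B by 1.91 ± 0.13. YER160C differed by 1.87, YMR050C by 1.86 and YMR045C by 1.84. Of the 4006 called ORFs 151 had opposite signs in the 2 orientations, and of the 472 past 1.5-fold 460 had the same sign. Averaging a set removes a dye effect only where it is equal in both arrays.

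Several genes that serve as markers or as marker sites in laboratory strains differed. URA3 gave 1.55, 1.46 and 1.26, then 0.56, 1.04 and 1.60 in the double null (mean 1.25 ± 0.066), ADH4 gave 2.16, 2.15 and 1.65, then 1.64, 1.73 and 2.02 (mean 1.89 ± 0.039), and both were above 0 on all 6 arrays. HIS3 was at -0.37 ± 0.057, LEU2 at -0.30 ± 0.039, TRP1 at -0.36 ± 0.046, MET17 at 0.16 ± 0.040 and CAN1 at -0.030 ± 0.043, of which CAN1 did not pass the test. LYS2 was called at -0.22 ± 0.052 but gave -0.51, -1.06 and -0.66, then 0.36, 0.42 and 0.13, opposite signs. The genes next to the deletions also differed. SWT21, numbered next to UBP10, gave 0.67, 0.59 and 0.51, then 0.61, 0.62 and 0.60 (mean 0.60 ± 0.038), and MRPL19 on its other side was at 0.20 ± 0.040. FSH2, numbered next to UBP8, gave -0.81, -0.86 and -0.93, then -0.58, -0.72 and -0.74 (mean -0.77 ± 0.042), and MRE11 on its other side was at -0.15 ± 0.036. BPH1 stood alone in its stretch, with its neighbours RPS14A at -0.20 ± 0.053 and SNT1 at -0.17 ± 0.036, whereas the neighbours of FMP48, YGR050C at 0.90 ± 0.047 and MCO32 at 0.72 ± 0.044, rose with it.

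Set against the dot4 null, the double null was at least 1.5-fold higher in 251 ORFs (4.05%) and lower in 45 (0.725%), tested as a difference over 9 set means. The wild type strain was the same for both. BPH1 was at 2.41 in the double null and 0.66 in the dot4 null, a difference of 1.75 ± 0.11 (adjusted p = 1.8e-06). YAT1 was at 1.64 and 0.10 in the same order (difference 1.54 ± 0.087). BNA5 and its neighbour YLR232W were at 0.53 and 0.49 in the double null and at -0.995 and -1.01 in the dot4 null, and HIS3 was at -0.37 and -1.86. All 3 were low in the dot4 null, whereas in the double null BNA5 and YLR232W were called higher than in wild type and HIS3 was less low. The largest differences downward, besides UBP8, were in URA3 (1.25 and 3.51), ADH4 (1.89 and 3.36), the Ty ORF YJR027W (-1.01 and 0.083) and ADE17 (-1.28 and -0.38), double null first.

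Set against the ubp8 null, the double null was at least 1.5-fold higher in 122 ORFs (1.97%) and lower in 52 (0.838%). BPH1 was at 2.41 in the double null, against -0.18 where UBP8 alone was deleted (difference 2.60 ± 0.11, adjusted p = 1.84e-07). ADH4 was at 1.89 and -0.062, HSP12 at 2.004 and 0.35, URA3 at 1.25 and -0.36 and FIT3 at 1.31 and -0.092, in the same order. Downward, besides UBP10, the phosphate genes led, with PHO12 at -2.22 and -0.56, PHO11 at -2.20 and -0.64, PHO89 at -2.90 and -1.42 and SPL2 at -1.67 and -0.23. All 4 of these phosphate genes were lower in the double null than in either single null. They were chosen for their difference from the ubp8 null. Of the 16 listed phosphate genes 14 were called lower and 2 higher than in the ubp8 null. Against the dot4 null 12 were called lower and 2 higher.

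**Figure D5:**
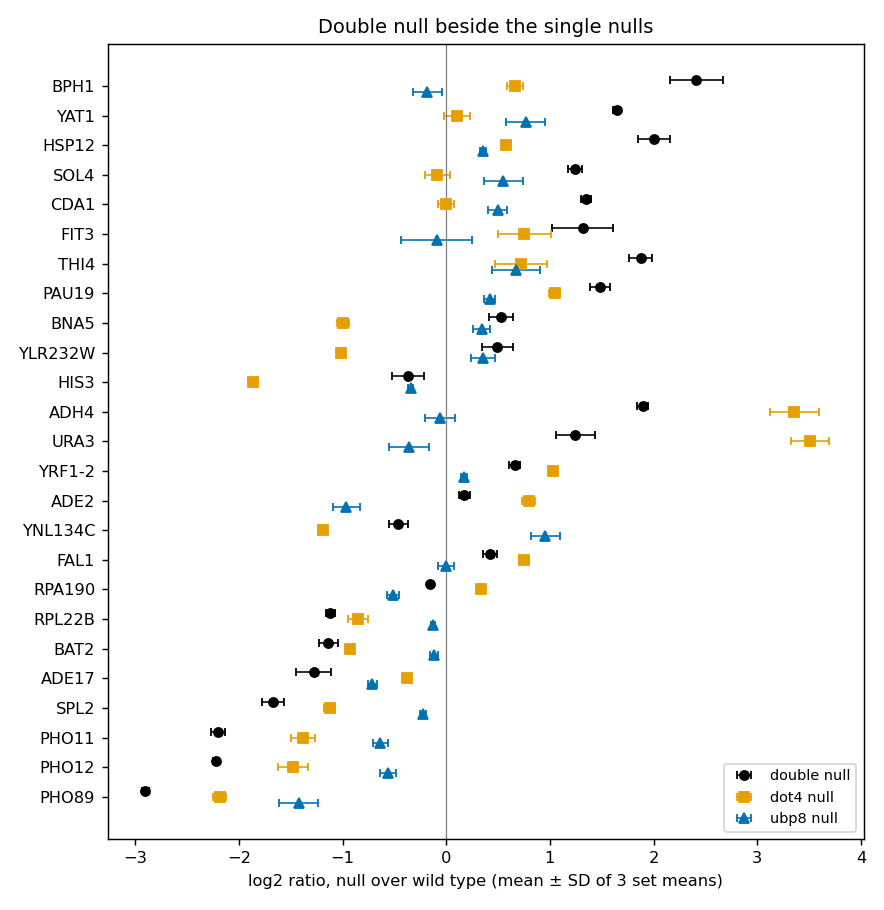
The x axis gives the log2 ratio of null over wild type, mean ± SD of 3 set means, in the double null (black circles), the dot4 null (orange squares) and the ubp8 null (blue triangles) for 25 named genes (y axis). BPH1 is highest in the double null (2.41 against 0.66 and -0.18), URA3 and ADH4 are highest in the dot4 null, and ADE2 and YNL134C have opposite signs in the single nulls.

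Gene lists differed from the single nulls in distinct ways. Of 33 general stress genes 32 were higher in the double null than in the dot4 null and none lower, and 19 were higher and 4 lower than in the ubp8 null, with medians of 0.61, -0.022 and 0.29 in the double, dot4 and ubp8 nulls. Of 59 meiosis genes 44 were higher than in the dot4 null and 1 lower, and 34 higher and 3 lower than in the ubp8 null. Over all ORFs such differences were called higher in 29.0% and lower in 29.2% against the dot4 null, and in 23.2% and 21.0% against the ubp8 null. All 7 Y' helicase genes were lower in the double null than in the dot4 null and higher than in the ubp8 null (medians 0.57, 1.01 and 0.17). Of 105 ribosome biogenesis genes 94 were lower than in the dot4 null and none higher, and 82 were higher than in the ubp8 null and 1 lower. Their medians in the double, dot4 and ubp8 nulls were -0.013, 0.31 and -0.24. RPA190, the largest subunit of RNA polymerase I, likewise lay between the single nulls (-0.16, 0.34 and -0.51 in the same order). Ribosomal protein genes were lower than in the ubp8 null in 124 of 138, and lower than in the dot4 null in 31 with 7 higher. YNL134C, a reductase gene, was at -0.46, -1.19 and 0.96 in the double, dot4 and ubp8 nulls, and ADE2 at 0.17, 0.79 and -0.96.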

How the data were processed

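The data are 2-colour arrays with 1 log2 ratio per ORF and array, deposited by the authors for 18 arrays, 6 of them of the double null. Per the labels, total RNA of null and wild type strains was compared by Cy5 and Cy3. The background correction, normalization and array annotation behind the deposited log2 values stay unknown, being not given in the sources used here. Intensities were not used. The log base was read from the values, where a stand-in for an unmeasurable ratio occurred in 2 cells of the whole table, none of them on the double null arrays, and 2 values were missing there. Signal over background is therefore unknown, and precision is limited by the number of arrays.

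Each array was centred on its median (-0.177 to 0.259 as deposited), ratios of arrays with the null in channel 1 were given the opposite sign, and the 2 arrays of a set, a dye swap, were averaged. The 3 set means were tested against 0 by lmFit and eBayes of limma 3.58.1 under R 4.3.3, with Benjamini-Hochberg adjustment over 6205 ORFs. Differences from the single nulls came from 1 fit of 9 set means, and orientation differences from the 3 within-set differences. An exact sign-flip test over 3 sets cannot go below p = 0.25. The fit was tested on simulated data. Genes were named through a RefSeq table (5705 of 6205 ORFs matched).

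The genes named are UBP10 and UBP8, the 30 largest changes each way with all sets on one side, up to 4 called members of each list each way and all members of lists of up to 8, the 5 largest each way of each genotype contrast, the 5 largest orientation differences, the neighbours of the deleted genes, and strain markers. Neighbours of BPH1 and FMP48, and the genes of neighbouring runs, were named after their values were seen. The gene lists and the members were chosen with earlier results of these data known. Promoter motifs were not analysed here, and the result of 1 gene list is not reported here.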

Additional observations from a re-analysis of the deposited data

Results flagged for a closer look

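A result is listed here where a test of the difference itself found that the double null differed from a single null, or that the 2 orientations of the double null differed, taking the largest differences. Against the dot4 null, the double null was higher by 1.75 in BPH1, 1.54 in YAT1, 1.52 in BNA5, 1.51 in YLR232W and 1.49 in HIS3, on the log2 scale. It was lower in ADE17 (difference -0.90), in the Ty ORF YJR027W (-1.10), in ADH4 (-1.46) and in URA3 (-2.26). Each passed an adjusted p of 0.05 in limma, and the wild type RNA was of the same strain on all arrays.

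Against the ubp8 null, the double null was higher by 2.60 in BPH1, 1.96 in ADH4, 1.65 in HSP12, 1.60 in URA3 and 1.41 in FIT3. It was lower in SPL2 (difference -1.44), PHO89 (-1.48), PHO11 (-1.56) and PHO12 (-1.66), the last a close copy of PHO11. URA3 and ADH4 stood between the single nulls.

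Between the orientations of the double null, ORFs of Ty elements were higher on channel 2 arrays, by 1.98 in YAR009C, 1.91 in YBL101W-B, 1.87 in YER160C, 1.86 in YMR050C and 1.84 in YMR045C. The cause of the difference was not tested.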

How the results depend on the processing

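Of 472 ORFs past 1.5-fold, 472 were still called in the same direction without any 1 set, 470 without the array that carries the other strain number, 468 on channel 1 arrays alone and 447 on channel 2 arrays alone. The 472 were chosen by size on these same arrays, which favours their being called again. Still past 1.5-fold in the same direction were 446, 446 and 439 without sets 1, 2 and 3. Counts without a fold threshold depended on the setting. The 2026 higher and 1980 lower ORFs became 1096 and 870 with no centring, and 655 and 384 in a limma test against a fold of 1.2, which asks for a larger change. The 121 ORFs at least 1.5-fold lower became 77 with arrays scaled to a common spread and 248 on channel 1 arrays alone. The 45 ORFs at least 1.5-fold lower than in the dot4 null became 81 with no centring. Leaving out 1 set, the ORFs at least 1.5-fold apart between orientations numbered between 52 and 176 higher on channel 2 arrays, against 133 with all sets, and between 6 and 45 lower, against 29, the lowest counts being those without set 2 and the 45 that without set 3. The cause was not tested. The median of the outermost ORFs was 0.32 for 10 per arm against 0.43 for 5. Turns of sign are given next only for named genes that were called and for lists whose median exceeded the spread between sets. Medians of lists nearer 0 also turned. Among them were glycolysis (-0.037, and 0.46 on channel 2 arrays), cell wall (-0.11 and 0.20) and sterol genes (0.0045, and -0.067 on channel 1 arrays). On channel 2 arrays alone the sign turned in PDC1 (0.47), HMLALPHA1 (-0.036), YAR009C (0.12), YBL101W-B (0.059), YER160C (0.069), YMR045C (0.060), YMR050C (0.031) and the median of other ubiquitin protease genes (-0.013). On channel 1 arrays alone it turned in ADH1 (-0.43), CCW12 (-0.031), COS12 (0.13), LYS2 (0.31), RPL41B (-0.059) and the median of mitochondrial ribosomal protein genes (0.035). ADH1 also turned without the array that carries the other strain number (-0.0073). Of 3435 values of named genes under the alternatives 3308 kept their side of the threshold and, where the gene was called with all arrays, their direction. The direction of genes that were not called was not compared. Of 900 list medians 798 moved by no more than the spread between sets. Some alternatives, such as the test against a fold of 1.2 and the replicate block below, change the p-values but not the means. Under those no direction and no list median could move, so both shares partly reflect the choice of settings.

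With the set number as a replicate block across the genotypes, 2207 ORFs were higher and 2180 lower, 351 and 121 of them at least 1.5-fold, UBP10 was at -4.70 and UBP8 at -2.94. The block gave 251 higher and 45 lower ORFs against the dot4 null and 121 and 52 against the ubp8 null. Each genotype has every set number, so the block cannot move a mean where no value is missing. These counts could change only through the p-values. Same-numbered sets of the double null correlated at 0.088, 0.13 and 0.24 with those of the dot4 null (deviations from genotype means, across ORFs). With those of the ubp8 null the values were 0.089, -0.10 and -0.26. Sets with different numbers lay between -0.25 and 0.165 for the dot4 null and between -0.26 and 0.29 for the ubp8 null. With 3 sets per genotype these values cannot decide whether equal numbers pair the samples. No intensities were used here, so the part of low signal in any value was not tested. The 3 sets limit the precision.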

Other observations

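Some genes outside the lists were chosen after their values were seen. Several of them act in fatty acid or phospholipid synthesis, and the other genes of these pathways were not examined as a group. Acetyl-CoA carboxylase, ACC1, was at -0.71 ± 0.038, the fatty acid synthase genes FAS1 at -0.50 ± 0.056 and FAS2 at -0.72 ± 0.050, the desaturase OLE1 at -0.66 ± 0.050 and the phosphatidylethanolamine methyltransferases CHO2 at -0.71 ± 0.043 and OPI3 at -0.56 ± 0.054, all 6 called lower. INO1, inositol phosphate synthase and a gene of the same regulatory family, rose (0.78 ± 0.067). Glutamate dehydrogenase GDH1 (-0.90 ± 0.043), the glycerol phosphate dehydrogenase GPD2 (-0.72 ± 0.039) and the mating type switching endonuclease HO (-0.70 ± 0.051) fell at least 1.5-fold.

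Membrane and oxidant genes were among the increases that no list holds. NCE102, an eisosome protein, was at 1.04 ± 0.050, WSC4 at 1.196 ± 0.042, the sulfiredoxin gene SRX1 at 0.94 ± 0.045 and the kinase gene RCK1 at 1.005 ± 0.056. GUP2 was at 0.99 ± 0.063, and its relative GUP1 at 1.002 ± 0.16, with 0.35 on channel 2 arrays and 1.66 on channel 1 arrays. Of 351 higher ORFs 166 were in no list and outside the 10 outermost ORFs of an arm, a smaller share than the 4850 of all 6205 ORFs. Of the 351, 83 (23.6%) had no gene name. Of 121 lower ORFs 48 (39.7%) had no gene name, where 16.7% of all ORFs had none. The 48 include the 23 listed Ty ORFs, which are not separate measurements.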
